A study of Canis lupus familiaris with 4 samples.

Results

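The genes described here make cholesterol, move or store it, or control its synthesis through the sterol regulatory element-binding proteins (SREBPs). They were taken as the 31 listed symbols found in the symbol column of both deposited tables. Of these, 29 matched a row among the 11691 genes that the tables share, while IDI1 and AACS matched none and were not analysed here. EBP shares its row with PORCN, so its reads cannot be told from those of PORCN, and that value is uncertain.

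RNA was sequenced from CD8+ T cells of dogs, with 2 libraries in each of 2 groups. Blood mononuclear cells of 2 healthy mixed-breed dogs, 1 female and 1 male, had been expanded for 14 to 20 days in 2500 IU/mL IL-2 and 50 µM 2-mercaptoethanol before CD8+ cells were purified, and the same IL-2 and mercaptoethanol were present in both arms. Cells of the exosome group were given exosomes (small secreted vesicles) from CLBL-1, a dog lymphoma line of B cell origin, while controls were given an equal amount of PBS. A dose of 50 µg/mL is named for sequencing in the series design, whereas the treatment label lists 50, 100 and 200 µg/mL. The labels give 48 h for every library, but the columns of 1 table carry 24 h (called pair 1) and those of the other 48 h (pair 2). Dog, sex and the time in the column name therefore cannot be told apart between pairs.

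Cells build cholesterol from acetyl-CoA. The mevalonate steps yield farnesyl diphosphate, the branch point to protein prenylation, dolichol and ubiquinone, and the sterol steps turn farnesyl diphosphate into squalene, lanosterol and finally cholesterol. SREBPs are transcription factors held in the endoplasmic reticulum by SCAP and INSIG proteins while sterols are plentiful. When sterols run low they move to the Golgi, are cut by the proteases encoded by MBTPS1 and MBTPS2, and switch on most genes of the pathway. Activated T cells raise this pathway to build membrane for division.

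Values are scaled read counts, that is, reads that the authors divided by a factor of the library, and every value comes from 1 library. They compare 1 gene between libraries and not genes with each other, since they are not corrected for transcript length. Recovered reads over the shared genes ranged from 9417298 to 12325953 per library, and the members had 39 to 3468 reads per library. T cell genes were present throughout, with CD3E at 530.2 to 873 and CD8A at 286 to 488. Other genes of that list differed between the pairs: CD8B stood at 73.4 against 72.7 (pair 1) and 479 against 528 (pair 2), control against exosome, and CD3D at 91.7 against 65.4 (pair 1) and 221 against 218 (pair 2). Of the CD4 T cell list, CD4 stood at 3.22 to 11.6, FOXP3 at 0.863 to 3.15 and CD40LG higher, at 25.7 to 48.8. The B cell gene MS4A1 stood at 3.62 to 10.7, and CD79A, another B cell marker, shares its row with a ribosomal protein gene. The single measured monocyte marker, CD68, was at 0.471 to 2.17. Of the NK cell list, NCR1 stood at 10.6 to 42.6, NCR3 at 9.96 to 100 and KLRB1 at 9.99 to 173. The only measured row of the neutrophil list, shared by S100A8 and S100A6, stood at 40.3 to 151. In such bulk libraries, fewer cells of a type and less RNA per cell cannot be told apart.

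The comparison asked how these genes differ between T cells given lymphoma exosomes and their PBS controls. Most enzymes of the pathway were at lower values under exosomes in each pair, the genes of sterol transport and storage were mostly slightly higher, and the SREBP machinery had no common direction. SQLE and DHCR7 fell. Of the 18 measured enzyme genes, 15 had lower values in both pairs, 1 had higher values in both and 2 differed in sign; over all genes, 32.5% were lower in both pairs. Over all 29 members the counts were 18 lower in both pairs, 5 higher in both and 6 mixed, and 27.8% of all genes were higher in both. By limma with the pair as a block and Benjamini-Hochberg adjustment over the 11691 genes, 2 members were called lower, where 0.496% of all genes were, and 0 higher, where 0.248% were. At an unadjusted p under 0.05 by limma, 10 members were lower and 2 higher, where 9.96% and 5.95% of all genes were. The count depends on the test: DESeq2 called the same 2 genes lower and 0 members higher (1.14% and 0.658% of the genes it adjusted), while edgeR and limma-voom called 0 members, and 0 genes in all, at the adjusted threshold. At an unadjusted p under 0.05 both had 11 members lower and 2 higher, where edgeR had 8.43% of all genes lower and 5.6% higher and limma-voom 8.8% and 6.06%. Limma with a trend of variance on expression called 7 members lower and 1 higher, and 3.44% and 1.75% of all genes. The libraries of the groups did not overlap for 5 members with lower exosome values (ACAT2, MVD, FDPS, LSS and SC5D; 14.3% of all genes) and for 2 with higher ones (HSD17B7 and NPC2; 12.9%). With 1 library per pair and arm, these p-values rest on 1 residual degree of freedom and mostly on the variances of other genes.

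**Figure D1:**
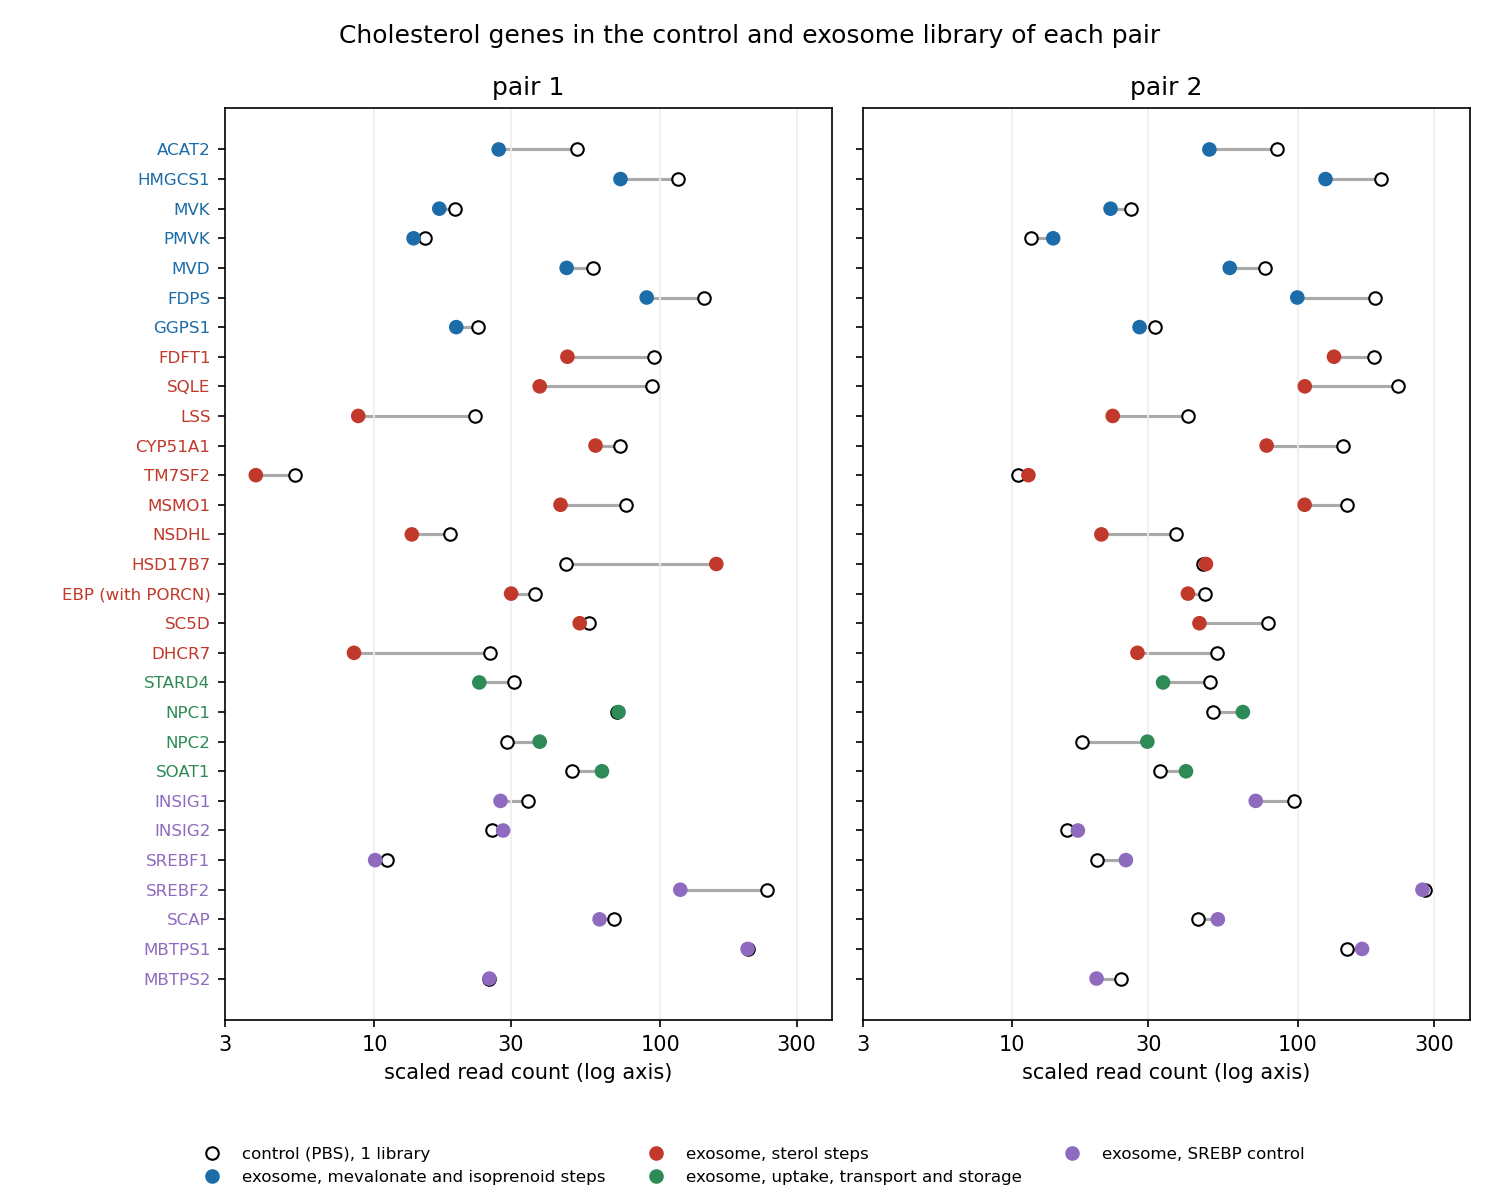
Scaled read count (log axis) of the 29 members in pathway order, with the control library as an open circle and the exosome library as a filled circle coloured by role, for pair 1 (left) and pair 2 (right). Exosome circles lie to the left of the controls for most enzymes, with SQLE at 93.5 against 37.9 (pair 1) and 224 against 106 (pair 2), and HSD17B7 in pair 1 lies far to the right of its control, at 157 against 46.8.

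Among the 7 measured genes of the mevalonate and isoprenoid steps, 6 had lower values in both pairs, as 32.5% of all genes did. Limma called 0 of them, and 3 were lower at its unadjusted p under 0.05, where 9.96% of all genes were. The median log2 difference, exosome minus control on the log2(value + 1) scale, was -0.30 in pair 1 and -0.40 in pair 2, against -0.020 and -0.025 over all genes. The first step belongs to ACAT2, which joins acetyl-CoA units, and its scaled counts were 51.3 against 27.2 (pair 1) and 84.5 against 49.0 (pair 2), control against exosome as in all such pairs of values. Both exosome libraries were below both controls. Its log2 difference was -0.83 ± 0.23 (SE; limma adjusted p = 0.0898). In a RefSeq gene table of the assembly UU_Cfam_GSD_1.0, ACAT2 overlaps TCP1, a chaperonin subunit gene, whose values were 186 against 149 (pair 1) and 224 against 182 (pair 2). Only whole gene spans were compared, on another assembly than the CanFam3.1 named for processing. Whether reads were counted by strand is not given in the sources used here, so whether any counted reads were shared is unknown.

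HMGCS1, the cytosolic HMG-CoA synthase, stood at 116 against 72.6 (pair 1) and 195 against 125 (pair 2). The exosome library was the lower one of each pair, but that of pair 2 was above the control of pair 1, so the groups overlap. Its log2 differences were nearly equal in the pairs, -0.66 and -0.64 (limma adjusted p = 0.179). FDPS, which makes farnesyl diphosphate, stood at 142 against 89.6 (pair 1) and 187 against 99.5 (pair 2). All its exosome values were below both controls, with a log2 difference of -0.78 ± 0.23 (SE; limma adjusted p = 0.112). ACAT2, HMGCS1 and FDPS were each at least 1.5-fold lower in both pairs, as 5.02% of all genes were. Limma with a trend of variance on expression called each of them lower (adjusted p = 0.0129, 0.0421 and 0.0121), where 3.44% of all genes were.

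The other enzymes of these steps differed less. MVD, the decarboxylase that yields isopentenyl diphosphate, stood at 58.2 against 47.0 (pair 1) and 76.4 against 57.7 (pair 2), again with both exosome libraries below both controls. MVK, mevalonate kinase, stood at 19.1 against 16.9 (pair 1) and 26.0 against 22.1 (pair 2), and GGPS1, which lengthens farnesyl to geranylgeranyl diphosphate, at 23.0 against 19.3 (pair 1) and 31.5 against 27.9 (pair 2). PMVK, phosphomevalonate kinase, stood at 14.99 against 13.7 (pair 1) and 11.7 against 13.9 (pair 2), lower with exosomes in one pair and higher in the other. The log2 differences of MVD, MVK, GGPS1 and PMVK were -0.35, -0.20, -0.20 and 0.057 ± 0.23 (SE for PMVK, the highest of this group), with limma adjusted p-values of 0.514, 0.756, 0.749 and 0.946.

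Both members that limma called lower in the reported fit belong to the sterol steps. Of 11 measured genes, 9 were lower in each pair, as 32.5% of all genes were. Limma called 2 of them lower and 0 higher, where 0.496% and 0.248% of all genes were. The median log2 difference was -0.42 in pair 1 and -0.78 in pair 2. SQLE (ENSCAFG00000001056), squalene epoxidase, which adds the oxygen that later becomes the hydroxyl group of sterols, fell to 37.9 against a control of 93.5 (pair 1) and to 106 against 224 (pair 2). These values rest on 1192, 384, 2109 and 1344 reads. The exosome value was 0.405 (0.360 to 0.455) of the control in pair 1 and 0.472 (0.441 to 0.506) in pair 2 (exact 95% intervals, which cover counting error only). The exosome library of pair 2 still lay above the control of pair 1, so the groups overlap and the call comes from the differences within pairs. The log2 difference was -1.18 ± 0.23 (SE; limma adjusted p = 0.0403), with an adjusted p of 0.00091 by DESeq2 and 0.154 by edgeR.

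DHCR7 (ENSCAFG00000010424), the reductase of the last step to cholesterol in the Kandutsch-Russell branch, fell to 8.48 against a control of 25.3 (pair 1) and to 27.4 against 51.9 (pair 2). Its read counts were lower, at 322, 86, 489 and 349. The exosome value was 0.336 (0.261 to 0.427) of the control in pair 1 and 0.529 (0.460 to 0.608) in pair 2 (exact 95% counting intervals). Again the exosome library of pair 2 was slightly above the control of pair 1. The log2 difference was -1.18 ± 0.24 (SE; limma adjusted p = 0.0479; 0.0233 by DESeq2 and 0.17 by edgeR). Both calls were lost without the pair block, with a pseudocount of 0.1, and with values rescaled by TMM factors or by recovered reads. No gene of the 11691 was called in those settings. When any 1 library was left out, the log2 difference ranged from -1.91 to -0.45 for SQLE and from -1.98 to -0.39 for DHCR7.

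LSS, which folds epoxidised squalene into lanosterol, stood at 22.5 against 8.78 (pair 1) and 41.2 against 22.5 (pair 2). Its exosome libraries were below both controls, although that of pair 2 nearly equalled the control of pair 1, and its log2 difference was -1.06 ± 0.24 (SE; limma adjusted p = 0.0565). FDFT1, squalene synthase, the step that commits farnesyl diphosphate to sterols, stood at 94.7 against 47.3 (pair 1) and 185 against 134 (pair 2). MSMO1, the methylsterol oxidase, stood at 76.0 against 44.8 (pair 1) and 148 against 106 (pair 2). Both had the lower value with exosomes in each pair, with the lower ratio in pair 1, with limma adjusted p-values of 0.151 and 0.211 and overlapping groups.

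The reverse order held for CYP51A1, NSDHL and SC5D, whose values differed more in pair 2. CYP51A1, the lanosterol demethylase, stood at 72.6 against 59.4 (pair 1) and 144 against 77.7 (pair 2). NSDHL, a dehydrogenase that removes a carboxyl group from the sterol ring, stood at 18.4 against 13.5 (pair 1) and 37.4 against 20.5 (pair 2), and SC5D, a sterol desaturase, at 56.3 against 52.3 (pair 1) and 78.4 against 45.2 (pair 2). The groups of SC5D did not overlap, while those of CYP51A1 and NSDHL did. Their log2 differences were -0.58, -0.63 and -0.44, with limma adjusted p-values of 0.261, 0.212 and 0.421.

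The other sterol enzymes showed small differences or the opposite one. TM7SF2, a sterol reductase, had the lowest read counts of all members (39 to 145 per library) and stood at 5.26 against 3.85 (pair 1) and 10.5 against 11.4 (pair 2). The row shared by EBP, the sterol isomerase, and PORCN stood at 36.5 against 30.1 (pair 1) and 47.4 against 41.2 (pair 2). HSD17B7, the keto-reductase that acts on the sterol ring after NSDHL, stood at 46.8 against 157 (pair 1) and 46.6 against 47.7 (pair 2). Its exosome value was 3.36 (3.05 to 3.70) times the control in pair 1 and 1.02 (0.903 to 1.16) in pair 2 (exact 95% counting intervals), so a single library, the exosome one of pair 1, was high and the other 3 were alike. The mean log2 difference of 0.88 ± 0.33 (SE; limma adjusted p = 0.213) rests on pair 1. With 1 library per arm in each pair, the difference between pairs has no test.

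Summed over the 11 sterol-step genes, HSD17B7 included, the scaled counts were 548 against 463 (pair 1) and 1015 against 639 (pair 2). The sums of the 7 mevalonate and isoprenoid genes were 424 against 286 (pair 1) and 612 against 395 (pair 2). Exosome over control, the mevalonate sum was 0.675 and 0.646, near-equal in the pairs, and the sterol sum 0.846 and 0.629. Without HSD17B7, a setting chosen after seeing the data, the sterol sum was 0.611 and 0.610, so the difference between the pairs in this sum comes from that gene. Over all shared genes the same ratio was 1.03 and 0.948. Genes with many reads weigh most in such sums.

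Of the 4 genes of sterol uptake, transport and storage, 3 had higher values with exosomes in both pairs (27.8% of all genes) and 1 had lower values. None was called by limma. At an unadjusted p under 0.05 by limma, 1 was higher and 0 lower, where 5.95% and 9.96% of all genes were. NPC2, which hands cholesterol to NPC1 inside the lysosome, stood at 29.2 against 37.9 (pair 1) and 17.6 against 29.7 (pair 2). Both exosome libraries were above both controls. Its log2 difference was 0.54 ± 0.23 (SE; limma adjusted p = 0.275). NPC1, the lysosomal membrane protein that exports cholesterol, stood at 70.4 against 71.5 (pair 1) and 50.6 against 64.2 (pair 2), with the pair 1 values almost equal. Its span overlaps that of RMC1 in the RefSeq table, with RMC1 at 46.7 against 66.1 (pair 1) and 63.5 against 67.0 (pair 2). Whether any counted reads were shared is unknown. SOAT1, which esterifies cholesterol for storage, stood at 49.1 against 62.5 (pair 1) and 32.9 against 40.6 (pair 2), a higher exosome value in each pair with groups that overlap. STARD4, a cytosolic sterol carrier that is itself an SREBP target, was the exception, at 30.8 against 23.3 (pair 1) and 49.4 against 33.7 (pair 2). Limma adjusted p-values were 0.791 for NPC1, 0.567 for SOAT1 and 0.351 for STARD4, whose log2 difference was -0.46 ± 0.23 (SE).

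The 7 genes of SREBP control had no shared direction: 2 were lower in both pairs, 1 was higher in both and 4 were mixed. Over all genes, 32.5% were lower and 27.8% higher in both pairs. None of the 7 was called by limma, where 0.496% of all genes were called lower and 0.248% higher. At an unadjusted p under 0.05, 0 were lower and 0 higher, where 9.96% and 5.95% of all genes were. So few genes cannot set these counts apart from the shares of all genes. The median log2 difference of the 7 was -0.13 in pair 1 and 0.12 in pair 2. INSIG1, the retention protein whose gene is an SREBP target, stood at 34.5 against 27.6 (pair 1) and 97.2 against 71.2 (pair 2). It was lower with exosomes in each pair, with exosome values of 0.800 (0.686 to 0.931) and 0.732 (0.667 to 0.803) of the control (exact 95% counting intervals) and a log2 difference of -0.38 ± 0.23 (SE; limma adjusted p = 0.469). INSIG2, the related protein that is not a classical SREBP target, stood at 25.7 against 28.2 (pair 1) and 15.6 against 17.0 (pair 2). Its counting intervals, 1.10 (0.932 to 1.29) and 1.09 (0.879 to 1.35) of the control, include equal values in both pairs (log2 difference 0.12 ± 0.23, SE; limma adjusted p = 0.865).

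SREBF2, the gene of SREBP-2, the factor that mainly drives cholesterol genes, stood at 237 against 118 (pair 1) and 279 against 273 (pair 2). Here again 1 library stood apart, the exosome library of pair 1, and the other 3 lay closer together. The exosome value was 0.496 (0.464 to 0.531) of the control in pair 1 and 0.977 (0.928 to 1.03) in pair 2 (exact 95% counting intervals; log2 difference -0.52 ± 0.27, SE, limma adjusted p = 0.371). SREBF1, which encodes the SREBP-1 forms that drive more of fatty acid synthesis, stood at 11.1 against 10.1 (pair 1) and 19.8 against 25.0 (pair 2) (log2 difference 0.10 ± 0.24, SE; limma adjusted p = 0.902). SCAP, the sterol-sensing escort of SREBPs, stood at 68.7 against 61.3 (pair 1) and 44.6 against 52.5 (pair 2) (log2 difference 0.035 ± 0.23, SE; limma adjusted p = 0.971). Both were slightly lower in pair 1 and slightly higher in pair 2. MBTPS1, the gene of the protease that makes the first cut, stood at 203 against 202 (pair 1) and 148 against 168 (pair 2), and MBTPS2, that of the second protease, at 25.1 against 25.2 (pair 1) and 24.1 against 19.7 (pair 2) (limma adjusted p = 0.911 and 0.853). In the RefSeq table SREBF1, SREBF2, SCAP, MBTPS1 and MBTPS2 each overlap another annotated gene, such as the microRNA genes MIR33B at SREBF1 and MIR33A at SREBF2. Only whole gene spans were compared, so whether any counted reads were shared is unknown.

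**Figure D2:**
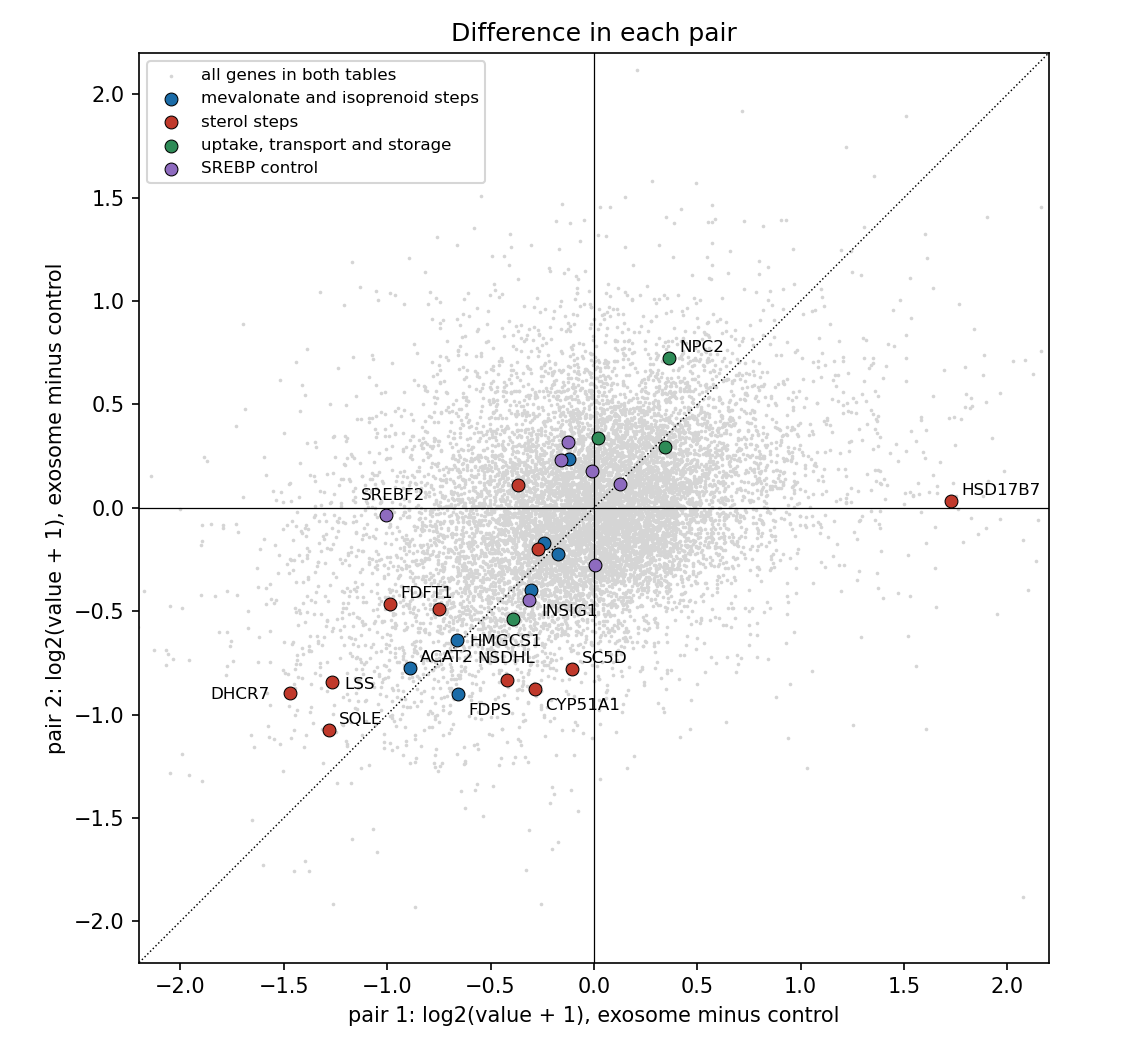
Difference in log2(value + 1), exosome minus control, in pair 1 (x axis) and pair 2 (y axis), with members coloured by role, all shared genes in grey and a dotted line of equal differences; 48 genes outside the axes are not drawn. Most enzymes lie in the lower left, NPC2 and SOAT1 in the upper right, and SREBF2 and HSD17B7 close to the horizontal line of no difference in pair 2.

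For 10 members the exact 95% counting intervals of the exosome to control ratio did not overlap between the pairs, against 35% of all genes. These were FDPS, CYP51A1 and SC5D, with the lower ratio in pair 2; FDFT1, DHCR7, SREBF2, NPC1, SCAP and MBTPS1, with the lower ratio in pair 1; and HSD17B7, far higher in pair 1. The share among members is near that of all genes, and these intervals hold no variation between cultures. At least 1.5-fold lower were 9 members in pair 1 (17.5% of all genes) and 9 in pair 2 (10.1%). The 6 that were so in both pairs were ACAT2, HMGCS1, FDPS, SQLE, LSS and DHCR7. The members at least 1.5-fold higher were HSD17B7 in pair 1 (10.8% of all genes) and NPC2 in pair 2 (9.29%).

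The authors' deposited tables mark genes by a fold of 1.5 and an unadjusted p of 0.05 from 1 library against 1. The authors' deposited table of pair 1 marks 9 members as lower (6.5% of shared genes) and 1 as higher (5.25%), and the authors' deposited table of pair 2 marks 8 as lower (2.98%) and 1 as higher (2%). The 6 marked lower in both of the authors' deposited tables (1.43% of shared genes) are again ACAT2, HMGCS1, FDPS, SQLE, LSS and DHCR7, and NPC2 is the member marked higher in pair 2.

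The level of the pathway also differed between the control libraries of the pairs. Among them, 16 of 18 enzyme genes had a higher value in pair 2 than in pair 1, where 51% of all genes did, and 8 of the 11 sterol-step genes were at least 1.5-fold higher there (18% of all genes). The median log2 difference between the controls, pair 2 minus pair 1, was 0.96 for the sterol steps and 0.42 for the mevalonate and isoprenoid steps, and 0.013 over all genes. SQLE in the control of pair 2 was 2.39 times its value in the control of pair 1, and INSIG1 was at 2.82 times its value there. The transport genes NPC1, NPC2 and SOAT1 ran the other way, at 0.719, 0.604 and 0.670 times, as did INSIG2 at 0.606 and SCAP at 0.649 times. With exosomes in both, the sterol steps still differed by a median of 1.22 on the log2 scale. The exosome library of pair 2 was close to the control of pair 1 for many enzymes: the median ratio over the 18 was 1.08, with 1.13 for SQLE, 1.09 for DHCR7 and 0.999 for LSS. By the labels each pair is 1 dog, and the times in the column names differ too, so these differences have no test. T cell markers also differed between the controls, with CD8B at 6.52 times and CD3D at 2.41 times the pair 1 value in pair 2, and their part in the pathway's level was not tested.

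**Figure D3:**
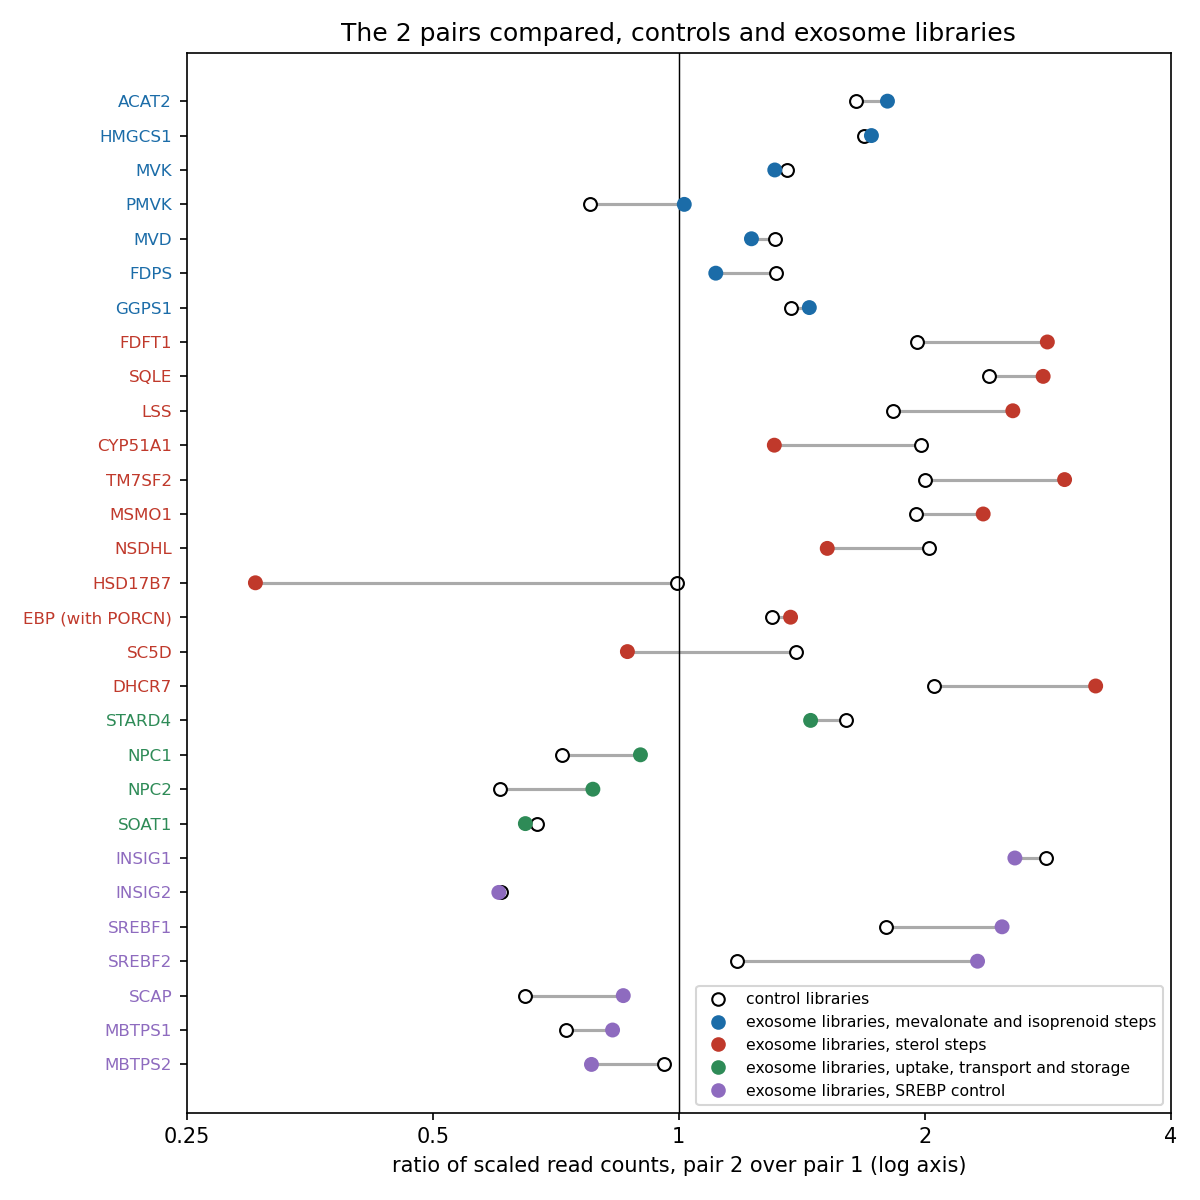
Ratio of scaled read counts, pair 2 over pair 1 (log axis), for each member in the control libraries (open circles) and the exosome libraries (filled circles coloured by role); the vertical line marks equal values. Enzymes lie mostly to the right of the line in both arms, with SQLE at 2.39 in the controls and 2.79 in the exosome libraries, and NPC1, NPC2, SOAT1 and INSIG2 to its left.

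Genes around the pathway were described from lists chosen by function. For comparison, limma called 0.496% of all genes lower and 0.248% higher. At an unadjusted p under 0.05 it had 9.96% lower and 5.95% higher. Of 12 genes of the isoprenoid branches, 0 were called by limma, with 1 lower and 1 higher at an unadjusted p under 0.05 and a median log2 difference of 0.026. COQ2, a ubiquinone synthesis enzyme, had the highest difference among those with a mean value of at least 20, at 41.5 against 53.4 (pair 1) and 48.0 against 55.7 (pair 2) (limma adjusted p = 0.627). The lowest belonged to the row of DHDDS, a dolichol synthesis subunit, which is shared with HMGN2 and therefore uncertain, at 288 against 243 (pair 1) and 454 against 225 (pair 2) (limma adjusted p = 0.246). Of 19 measured genes of sterol handling, 0 were called by limma (2 lower and 0 higher at an unadjusted p under 0.05). Their median log2 difference was 0.029. SCARB1, a receptor that takes up cholesterol from high-density lipoprotein, stood at 54.2 against 24.9 (pair 1) and 107 against 70.7 (pair 2), the exosome library lower in each pair (limma adjusted p = 0.101), and the highest of the list, ACBD3, a Golgi protein, at 39.3 against 49.5 (pair 1) and 29.0 against 34.1 (pair 2) (limma adjusted p = 0.639).

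Of 14 further regulators of SREBP, such as ubiquitin ligases and transport proteins, 0 were called by limma and 0 passed an unadjusted p of 0.05, with a median log2 difference of 0.056. The highest was SEC24A, a coat protein of vesicles that leave the endoplasmic reticulum, at 61.8 against 109 (pair 1) and 85.4 against 99.3 (pair 2) (limma adjusted p = 0.334), and the lowest UBE2J2, a ubiquitin-conjugating enzyme, at 44.7 against 38.7 (pair 1) and 45.7 against 39.5 (pair 2) (limma adjusted p = 0.745). Of 5 genes on the side of the liver X receptors (LXRs), which respond to oxysterols, limma called 1 higher, the sterol exporter ABCG1 (0.248% of all genes were). At an unadjusted p under 0.05 by limma, 3 of the 5 were higher and 0 lower, where 5.95% and 9.96% of all genes were. Values were higher in both pairs for 4 of the 5, as for 27.8% of all genes. The exception was ABCA1, at 20.1 against 14.6 (pair 1) and 6.05 against 8.10 (pair 2). ABCG1 stood at 1.49 against 16.1 (pair 1) and 4.03 against 14.4 (pair 2), with both exosome libraries above both controls. The ABCG1 values rest on few control reads, 19 against 163 (pair 1) and 38 against 183 (pair 2). Its log2 difference was 2.19 ± 0.28 (SE; limma adjusted p = 0.00971, 0.000297 by DESeq2 and 0.154 by edgeR). This call was lost in the same settings as those of SQLE and DHCR7, in edgeR with either kind of size factor and in limma-voom.

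Of 10 genes of fatty acid synthesis and desaturation, 9 had lower values in both pairs, as 32.5% of all genes did. Limma called 1 lower, the desaturase FADS1, where 0.496% of all genes were. At its unadjusted p under 0.05, 6 were lower and 0 higher, where 9.96% and 5.95% of all genes were. DESeq2 called 2 lower, FADS1 and FADS2, where 1.14% of the genes it adjusted were. FADS1 stood at 49.8 against 8.28 (pair 1) and 23.0 against 7.39 (pair 2), a log2 difference of -1.99 ± 0.26 (SE; limma adjusted p = 0.0111, 2.06e-05 by DESeq2 and 0.154 by edgeR). This call, too, was lost in those settings, except in edgeR with DESeq2-type factors, where the adjusted p was 0.0428. FADS2 stood at 54.9 against 12.6 (pair 1) and 6.16 against 3.30 (pair 2) (limma adjusted p = 0.0526, 0.0153 by DESeq2). The list's median was -0.55. SCD, the stearoyl-CoA desaturase, stood at 106 against 75.7 (pair 1) and 249 against 155 (pair 2), and FASN, fatty acid synthase, at 139 against 64.7 (pair 1) and 186 against 154 (pair 2) (limma adjusted p = 0.231 and 0.212). Both had the lower value with exosomes in each pair.

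**Figure D4:**
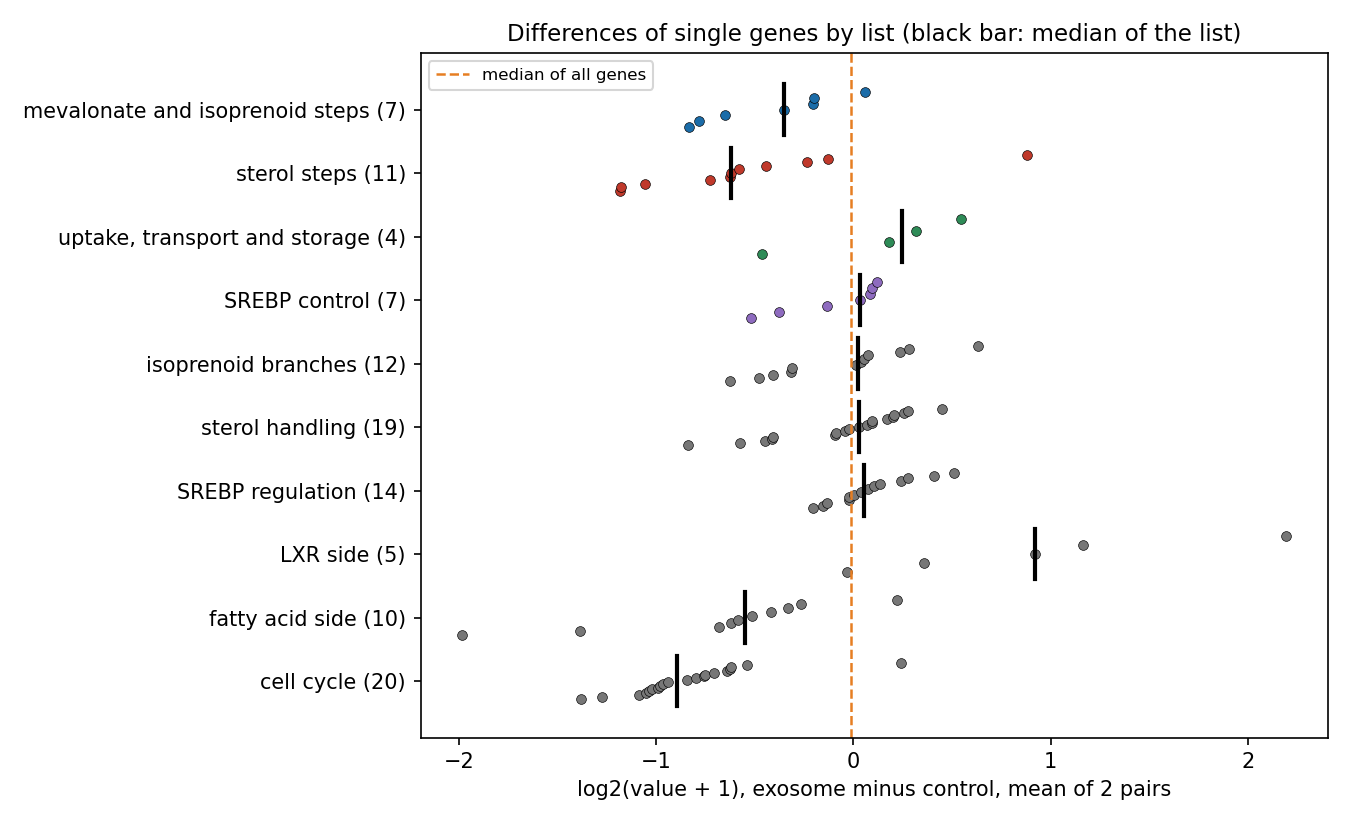
Log2(value + 1) difference of single genes, exosome minus control as the mean of 2 pairs (x axis), for the roles of the members (coloured) and for other lists (grey), with the number of genes in brackets, black bars at list medians and a dashed line at the median of all genes. Sterol steps have a median of -0.62, transport genes 0.25 and cell cycle genes -0.89.

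Genes of the cell cycle were also lower with exosomes. Of 20 measured, 19 were at lower values in each pair, as 32.5% of all genes were. Limma called 2 of them lower (RRM2 and MCM5; 0.496% of all genes) and DESeq2 10 (1.14% of the genes it adjusted). None of the 20 was called by edgeR with TMM factors, by limma-voom or without the pair block, where no gene at all was called. At an unadjusted p under 0.05, edgeR and limma-voom each had 19 of the 20 lower, where 8.43% and 8.8% of all genes were. RRM2, a ribonucleotide reductase subunit, stood at 125 against 39.1 (pair 1) and 311 against 145 (pair 2), and MCM5, part of the replicative helicase, at 50.7 against 19.8 (pair 1) and 132 against 55.8 (pair 2) (limma adjusted p = 0.0323 and 0.0323). The sum over the 20 genes stood at 2379.9 against 1359 (pair 1) and 5477 against 2771 (pair 2), and 20 of the 20 were higher in the control of pair 2 than in that of pair 1. The 3 measured NK cell markers, NCR1, NCR3 and KLRB1, also had lower values in both pairs, as 32.5% of all genes did. Their sums were 253 against 106 (pair 1) and 162 against 105 (pair 2). KLRB1 weighed most in the pair 1 sums, at 173 against 85.5, and stood at 19.6 against 9.99 in pair 2. DESeq2 called NCR3 and KLRB1 lower (1.14% of the genes it adjusted), and limma called 0 of the 3. NCAM1 matched no row. The 6 measured CD8 T cell markers summed to 1953 against 1658 (pair 1) and 2654 against 2549 (pair 2). The part of cell division or of the mix of cells in the lower sterol enzymes was not tested.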

How the data were processed

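Submitters' processing notes list, without order or settings, FastQC, MultiQC, CanFam3.1, featureCounts 1.6.0, HISAT2 2.1.0 and Trimmomatic 0.38. According to the log, DEGseq set 1 exosome library beside 1 control library in each table, 30951 genes having first been reduced to 11838, of which 89 and 58 were then dropped as outliers. Each library column deposited is a signal, the authors' read counts after division by a library factor. Taking the lowest value of a column as 1 read, 100% of its values were whole within 0.001, and these reads were used for count tests. Per the file headers, a mean column (a score), log2 fold changes and p-values of 1 library against 1 were deposited too. Total depth is unknown, since genes had been removed.

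Columns were assigned to control or exosome by name. The columns of a table form a pair, as the labels number each dog, and deviations of same-numbered libraries correlated at 0.818. That correlation cannot tell a shared dog from the shared time in the column names. limma 3.58.1 in R 4.3.3 was fitted to log2(value + 1) of the 11691 shared genes with the pair as block, giving 1 residual and 11.4 prior degrees of freedom, and Benjamini-Hochberg adjusted p-values were called at 0.05. Folds on that scale are too small for low genes. Alternatives were edgeR 4.0.16, limma-voom and DESeq2 1.42.0 on the recovered reads, other pseudocounts, scalings and filters, and fits without the block or without a library. Scripts were tested on simulated counts. Every matched member is named; other lists give the genes limma called, or else the highest and lowest with a mean of at least 20. SCD, FASN, FADS2 and ABCA1 were added after their values were seen. Members and lists were chosen with earlier results of these data known.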

Additional observations from a re-analysis of the deposited data

How the results depend on the processing

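The count of members called lower was 2, both in limma and in DESeq2. It was 0 with a pseudocount of 0.1, with values scaled to recovered reads or with TMM factors, without the replicate block, and in edgeR (with TMM or DESeq2-type factors) and limma-voom with the block. No gene at all was called in those settings, except in edgeR with DESeq2-type factors, with 0.0599% of all genes lower and 0.0599% higher. The count of members called lower was 7 with a pseudocount of 5 (3.49% of all genes were called lower there, against 0.496% in the reported fit) or an intensity trend (3.44%). It was 8 among genes with a mean value of at least 20 (5.39% of those tested), so calls over all genes rose as well. These 3 settings also called 1 member higher, HSD17B7, against 0, with 1.73%, 1.75% and 3.07% of genes called higher. Fits that leave out 1 library had no block and 1 library in a group, so only their log2 differences are given. At an unadjusted p under 0.05, the fit without the block had 1 member lower and 0 higher, where 123 and 86 of the 11691 genes were. At that threshold edgeR and limma-voom each had 11 and 2. Over all genes edgeR had 8.43% lower and 5.6% higher, and limma-voom 8.8% and 6.06%. The 16 of 18 enzyme genes with a lower mean level stayed within 13 to 16 when 1 library was left out, were 16 of 18 in the other fits of all genes and 15 of 16 under the mean filter. Leaving out HSD17B7, a choice made after seeing the data, gave a sterol sum, exosome over control, of 0.611 instead of 0.846 (pair 1) and 0.610 instead of 0.629 (pair 2). Scaling moved the median of all genes by less than 0.1.

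Of 432 member values under the 15 alternatives, 20 turned direction, each when 1 library was left out, which lets the difference between pairs into the fold. Over these fits the log2 differences ranged from -0.41 to 0.012 for MVK, -0.11 to 0.22 for PMVK, -0.46 to 0.050 for GGPS1, -1.47 to 0.013 for FDFT1, -0.81 to 0.55 for TM7SF2, -0.055 to 0.41 for NPC1, -1.11 to 0.36 for INSIG1, -0.23 to 0.47 for INSIG2, -0.52 to 0.71 for SREBF1, -1.12 to 0.084 for SREBF2, -0.27 to 0.34 for SCAP, -0.14 to 0.31 for MBTPS1 and -0.30 to 0.036 for MBTPS2. Of the median of all members the range was -0.57 to -0.048, of the sterol steps -1.10 to -0.14 and of the mevalonate and isoprenoid steps -0.54 to -0.16. The medians of the other roles changed sign, from -0.0094 to 0.51 for uptake, transport and storage and from -0.16 to 0.036 for SREBP control. The promoter motif alternative was not run, with no promoter sequence at hand. Depth limits TM7SF2 most, with 39 reads in its shallowest library.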
